A study of Mus musculus with 5 samples.

Results

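Transcripts of 10 immediate early genes were followed in group 2 innate lymphoid cells (ILC2s) of the mouse lung: the zinc finger factor genes Egr1, Egr2 and Egr3, the orphan nuclear receptor genes Nr4a1, Nr4a2 and Nr4a3, the IER genes Ier2, Ier3 and Ier5, and the antiproliferative gene Btg2. They were taken by name, as genes with a probe set that the platform annotation pairs with that symbol alone, and were 10 of the 22180 genes measured in this way. Each had 1 probe set. The samples were 2 arrays of ILC2s from IL-33 knockout mice and 3 arrays of ILC2s from wild-type mice. All 5 came from lungs of naive adult animals labelled male, and each was labelled as a biological replicate. The strain, the age in weeks, the structure of the Il33 allele, the sorting gate and the number of mice behind an array are not given by the labels, and part of the spread between arrays may be technical.

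Immediate early genes are transcribed within minutes of a stimulus and without new protein synthesis, because the factors that switch them on, such as serum response factor with its ternary complex partners and the cAMP response element binding protein, already sit at their promoters. IL-33 is an alarmin that reaches ILC2s through the receptor chain ST2, and its signal runs through MyD88 to NF-kB and MAP kinases, pathways that feed this class of genes. In mouse T cells EGR and NR4A factors are induced by antigen receptor signals and restrain activation. The same genes are also known to be switched on while a tissue is dissociated into single cells. The comparison asks whether their transcripts differ in ILC2s that developed and lived without IL-33.

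The values are log2 probe-set signals, array medians were 4.29 to 4.33, and a difference of 1 is a 2-fold difference in signal. Probe sets differ in affinity, so levels are compared between arrays for 1 gene and not between genes. Few arrays limit the precision: with 10 ways to divide 5 arrays, the smallest p an exact two-sided permutation test allows is 0.1, and no such p is printed. ILC2 identity genes had list means of 8.48 and 8.54 in knockout and 8.57 to 8.74 in wild-type arrays, and Gata3, their defining transcription factor gene, read 8.21 and 7.89 in knockout and 8.16 to 8.50 in wild-type arrays. Il33, an epithelial and stromal gene, was near the floor at 3.79 and 3.95 in knockout and 3.32 to 3.39 in wild-type arrays, and since neither the deleted part nor the place of the probes is known, it does not check the genotype. The array of knockout replicate 2, labelled male, had an Xist signal of 7.91. Xist read 3.10 in knockout replicate 1 and 2.35 to 3.10 in wild-type arrays. Of 3 Y-linked genes, 2 were lowest in replicate 2: Kdm5d read 4.79 there, 5.57 in knockout replicate 1 and 5.57 to 5.63 in wild type, and Eif2s3y read 6.14 there, 7.07 in knockout replicate 1 and 6.82 to 7.62 in wild type. Uty, at 7.17, was not below the others. These sex-linked genes were chosen after their values were seen. Each knockout array is given apart throughout, under the rule by which the 10 genes were taken.

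None of the 10 genes differed between genotypes beyond the spread between arrays. In knockout replicate 1 the signals of 7 of the 10 lay above all wild-type arrays, against 31.1% of all genes tested. In replicate 2 those of 2 did, against 30.4%. The median of the 10 differences, knockout minus wild type, was 0.19, against 0.04 over all genes tested. Split by array, the median was 0.46 for knockout replicate 1 and 0.04 for knockout replicate 2, where all genes tested gave 0.03 and 0.01. With limma (moderated test, Benjamini-Hochberg adjustment over 16635 genes), 0 of 10 passed an adjusted p of 0.05, with adjusted p between 0.623 and 0.999, and 0% of all genes tested passed. At an unadjusted p below 0.05 there were 0 of the 10 and 7.64% of all genes tested.

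In the RefSeq annotation (GRCm38.p6) the EGR genes Egr2 and Egr3 span chr10:67534469-67542188 and chr14:70077317-70082613, and the NR4A genes Nr4a1, Nr4a2 and Nr4a3 span chr15:101253902-101274795, chr2:57106830-57124003 and chr4:48045078-48086447. Ier2, Ier3, Ier5 and Btg2 span chr8:84661331-84662852, chr17:35821713-35822911, chr1:155096367-155099636 and chr1:134074865-134079155, so the last pair shares a chromosome. Which exons the probes read is not used here.

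The NR4A genes, whose products are ligand-independent nuclear receptors controlled mainly through how much of them is made, held the 2 largest differences among the 10. Nr4a2, which encodes Nurr1, read 10.53 and 9.70 in knockout replicates 1 and 2, against 8.78, 9.08 and 9.63 in wild-type replicates 1, 2 and 3. The knockout signals exceeded every wild-type signal, replicate 2 by 0.08 beside a wild-type range of 0.85. Nr4a2 averaged 10.12 ± 0.59 in knockout (SD, n = 2) and 9.16 ± 0.43 in wild type (SD, n = 3). The difference was 0.96 (SE 0.39, 95% interval -0.15 to 2.06), a 1.94-fold higher signal, and limma's adjusted p was 0.623. Knockout replicate 1 alone stood 2.59-fold and replicate 2 alone 1.46-fold above the wild-type mean.

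Nr4a3, which encodes Nor1, read 9.88 and 9.01 in knockout replicates 1 and 2, against 8.35, 9.01 and 9.38 in wild-type replicates 1, 2 and 3. Knockout replicate 1 was the highest of the 5 and replicate 2 had exactly the value of wild-type replicate 2, so the groups overlapped. The difference was 0.53 (SE 0.45, 95% interval -0.72 to 1.78) with a limma adjusted p of 0.647. Nr4a1, which encodes Nur77 and is widely used as a reporter of antigen receptor signalling in lymphocytes, read 11.84 and 11.28 in knockout arrays, against 11.22, 11.48 and 11.69 in wild-type arrays. It too was highest in knockout replicate 1, while replicate 2 lay in the lower part of the wild-type range. The difference was 0.10 (SE 0.24, interval -0.58 to 0.77), with a limma adjusted p of 0.876.

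Averaged over the 3 NR4A genes and set against their wild-type means, knockout replicate 1 stood at 0.90 and replicate 2 at 0.15, and wild-type replicates 1, 2 and 3 stood at -0.40, 0.01 and 0.39. The wild-type arrays thus lay as far apart as the knockout arrays did. In all 3 genes the highest wild-type signal was that of replicate 3 and the lowest that of replicate 1.

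The promoter sequences of the 2 genes Nr4a2 and Btg2 are shown because both lie wholly upstream of the annotated gene and hold copies of TGACG, the core of the cAMP response element, a sequence bound by factors that act on immediate early genes. They are the 250 bases before the start in RefSeq (GRCm38.p6), minus strand for both, at chr2:57124004-57124253 for Nr4a2 and chr1:134079156-134079405 for Btg2. Capitals mark TGACG on either strand.
Nr4a2: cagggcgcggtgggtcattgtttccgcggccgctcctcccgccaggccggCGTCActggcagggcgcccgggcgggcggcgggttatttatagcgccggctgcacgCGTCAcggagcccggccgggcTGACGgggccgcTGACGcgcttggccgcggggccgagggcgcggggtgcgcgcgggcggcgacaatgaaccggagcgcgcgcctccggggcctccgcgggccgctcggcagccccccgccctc
Btg2: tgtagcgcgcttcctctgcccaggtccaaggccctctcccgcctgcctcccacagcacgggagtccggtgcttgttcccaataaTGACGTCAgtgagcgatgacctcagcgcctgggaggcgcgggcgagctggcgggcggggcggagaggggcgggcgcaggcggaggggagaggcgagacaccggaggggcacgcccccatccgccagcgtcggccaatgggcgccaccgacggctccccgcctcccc

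For Nr4a1, Nr4a3 and Egr2 the annotated windows lie within or across the span of a longer gene model, and 30 bases around their sites are shown. They are on the plus strand at chr15:101266608-101266637, chr4:48045067-48045096 and chr10:67537789-67537818. Capitals again mark TGACG on either strand and, in Egr2, also the CArG box, the site of serum response factor.
Nr4a1: ccctgCGTCAatggaaccccgcgtgCGTCA
Nr4a3: aggagggTGACGtagcgtcccatgtCGTCA
Egr2: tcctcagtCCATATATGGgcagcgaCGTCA

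Of the 7 genes matched in the RefSeq promoter table, with 11 windows of 250 bases between them, 5 held TGACG (Egr2, Nr4a1, Nr4a2, Nr4a3 and Btg2), as did 19.8% of the 27025 genes in the table. The full element TGACGTCA, which contains that core on both strands, was found in Btg2 and in 1.77% of genes. The CArG box was found in Egr2 and in 1.62% of genes, and GCGNGGGCG, the binding sequence of EGR factors, in Nr4a1, Nr4a2 and Btg2 and in 5.33% of genes. AAAGGTCA, bound by NR4A receptors, was found in none of the 7 and in 1.55% of genes. Ier3 and Ier5 did not hold TGACG in these windows, and Egr1, Egr3 and Ier2 were not among the genes matched. Both strands were searched, and a match of letters describes the sequence and not its use.

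The EGR genes stood closer together, with differences of -0.02 to 0.38. Egr1, the zinc finger factor most often read as a marker of MAP kinase activity, read 6.79 and 6.98 in knockout replicates 1 and 2, against 6.80, 6.82 and 7.09 in wild-type arrays. Knockout replicate 1 was the lowest of the 5 arrays, although by less than the spread of either group, and it was the 1 gene of the 10 with a lower signal in knockout replicate 1 than in replicate 2. The difference of -0.02 had an SE of 0.13 and an interval of -0.39 to 0.34.

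Egr2, a zinc finger factor that restrains T cell activation, read 6.37 and 6.18 in knockout arrays, against 6.01, 5.53 and 6.15 in wild-type arrays. The groups did not overlap, but replicate 2 cleared the highest wild-type signal by 0.03, while the wild-type range was 0.62. The difference was 0.38 (SE 0.22, interval -0.25 to 1.01), 1.30-fold, with a limma adjusted p of 0.623. Egr3, the close relative of Egr2, read 7.15 and 6.96 in knockout arrays and 6.65, 7.15 and 7.32 in wild-type arrays. Its knockout values lay inside the wild-type range, and its difference was 0.02 (SE 0.24, interval -0.66 to 0.70).

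Among the IER genes, which are named for their immediate early response and are otherwise unlike one another, Ier2 divided the 2 knockout arrays. Ier2, which encodes a nuclear protein, read 8.77 and 7.71 in knockout replicates 1 and 2, against 8.36, 8.21 and 8.39 in wild-type replicates 1, 2 and 3. Replicate 1 was above and replicate 2 below all wild-type arrays, by 0.45 and -0.60 from the wild-type mean, so the mean difference of -0.08 (SE 0.35, interval -1.07 to 0.91) describes neither array. The knockout arrays were 1.06 apart, while the wild-type arrays spanned 0.18.

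Ier3, which encodes a stress-induced regulator of apoptosis, read 5.23 and 4.80 in knockout arrays, against 4.62, 4.68 and 4.80 in wild-type arrays. Knockout replicate 2 equalled wild-type replicate 3, and the difference was 0.31 (SE 0.16, interval -0.13 to 0.76) with a limma adjusted p of 0.623. Ier5, whose product activates the heat shock factor HSF1, read 6.82 and 6.68 in knockout arrays, against 7.24, 6.51 and 6.84 in wild-type arrays, with the knockout values inside the wild-type range and a difference of -0.12 (SE 0.25, interval -0.81 to 0.57). Btg2, which joins the CCR4-NOT deadenylase to shorten mRNA tails and slows proliferation, read 10.06 and 9.50 in knockout arrays, against 9.39, 9.49 and 9.63 in wild-type arrays. Knockout replicate 1 was highest, replicate 2 lay at the wild-type mean of 9.50, and the difference was 0.28 (SE 0.20, interval -0.29 to 0.85, adjusted p 0.624 with limma).

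**Figure D1:**
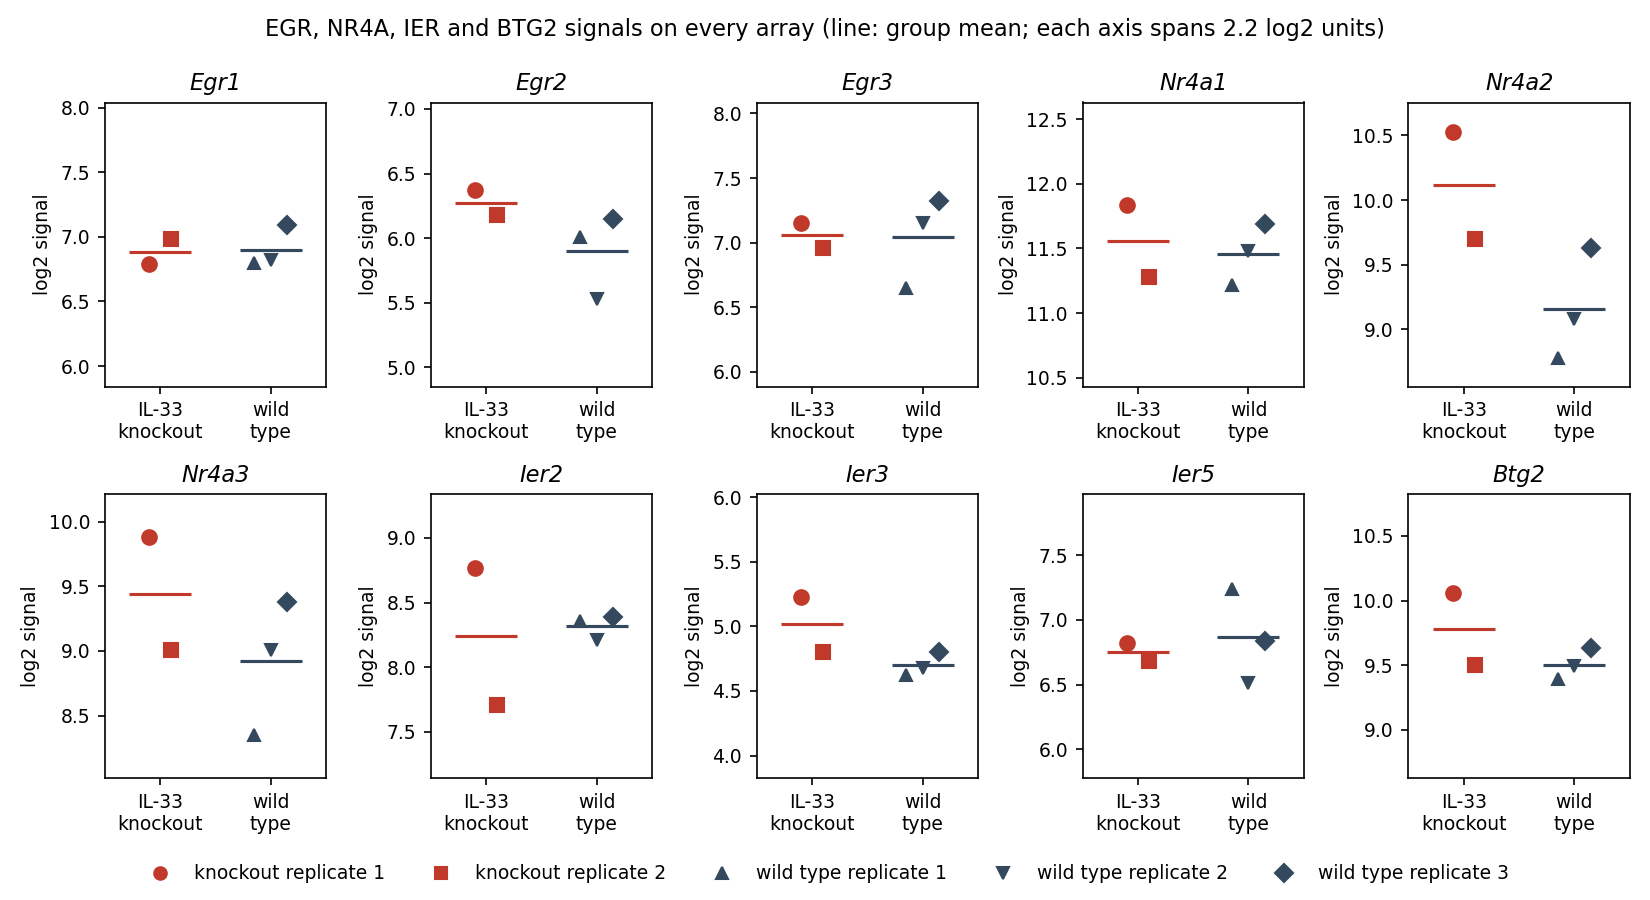
Log2 signal of each gene on every array, knockout at left and wild type at right, with a line at each group mean; every panel has its own axis of equal span. Knockout replicate 1 (circle) is the highest of the 5 arrays for 7 genes, and the groups do not overlap for Nr4a2 and Egr2.

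The 2 knockout arrays stood apart from each other for most of the genes. Knockout replicate 1 was above all 3 wild-type arrays for 7 of 10 genes (Egr2, Nr4a1, Nr4a2, Nr4a3, Ier2, Ier3 and Btg2), where 31.1% of all genes tested were, and below them for Egr1, where 16.6% were. Knockout replicate 2 was above them for 2 of 10, Egr2 and Nr4a2, where 30.4% of all genes tested were, and below them for Ier2, where 23.6% were. Both knockout arrays were above for 2 of 10, against 11.6% of all genes tested, and below for 0 of 10, against 6.32%. Without wild-type replicate 3, 4 of 10 had both knockout arrays above the remaining wild-type arrays (15.7% of all genes tested) and knockout replicate 2 was above for 5 (34.4% of all genes tested). Without wild-type replicate 2, 1 gene had both knockout arrays below (9.32% of all genes tested). The count of 7 for knockout replicate 1 was the same without any 1 of the wild-type arrays, beside 34.6% to 36.3% of all genes tested. Leaving out a wild-type array cannot lower such counts, so an unchanged count lends it no support.

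Knockout replicate 1 exceeded replicate 2 for 9 of 10 genes, all but Egr1. Over all genes tested that share was 45.7%, and it was 62.8% after median centring, where the count stayed at 9. After quantile normalization the count was 7 of 10 against 51.4%. Equal values count as not above. All 5 values were distinct for 7 of the 10 genes and for 36.4% of all genes tested. Ties thus lower the shares over all genes tested. The widest gaps between the knockout arrays were those of Ier2 at 1.06, Nr4a3 at 0.86 and Nr4a2 at 0.83. Among wild-type arrays replicate 3 had the highest signal for 9 of 10 genes, all but Ier5, where 26.1% of all genes tested had it. The median SD of the 10 genes was 0.349 between knockout arrays and 0.280 between wild-type arrays, against 0.156 and 0.145 for all genes tested.

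When the fit was run with knockout replicate 1 as the only knockout array, 0 of 10 passed with limma, and the lowest adjusted p was 0.164 for Ier3, whose difference was then 0.53. In that fit 2.34% of all genes tested passed. With knockout replicate 2 alone, 0 of 10 passed as well, against 6.44% of all genes tested, and the lowest adjusted p was 0.108 for Ier2 at -0.60. The differences of Nr4a2 were 1.37 and 0.54 in these fits, with adjusted p of 0.346 and 0.697. A lone knockout array is assumed there to vary like the wild-type arrays.

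**Figure D2:**
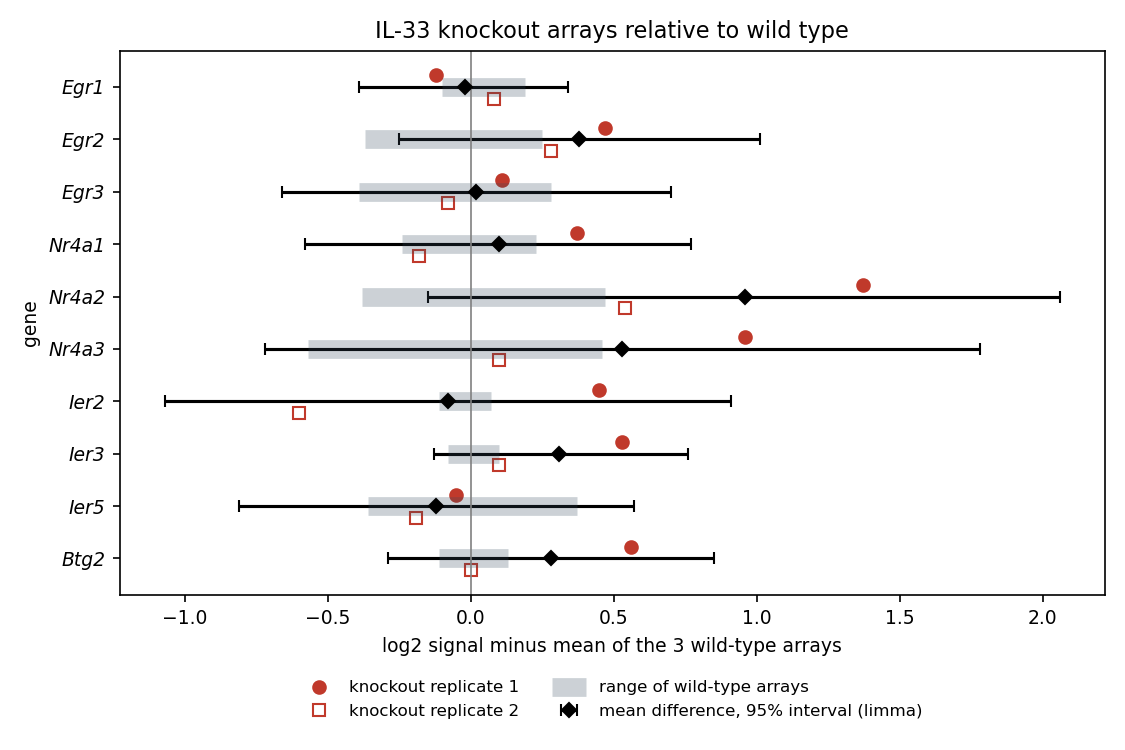
Distance of each knockout array (circle, replicate 1; open square, replicate 2) and of the knockout mean (diamond, with limma's 95% interval) from the wild-type mean, in log2 units, with the range of the 3 wild-type arrays as a grey bar. All 10 intervals include 0, and Ier2 has its knockout arrays on opposite sides of the wild-type range.

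The other immediate early genes, a list of transcription factors, phosphatases and feedback regulators, were also mostly higher in knockout replicate 1 than in replicate 2. Of 52 genes listed, 50 were found and tested, and 32 were above and 18 below 0 in difference. With limma 0 of the 50 passed, and 12 had an unadjusted p below 0.05, against 7.64% of all genes tested. Knockout replicate 1 was above all wild-type arrays for 33 and below for 5 of the 50, against 31.1% and 16.6% of all genes tested. Replicate 2 was above for 16 and below for 19 of the 50, against 30.4% and 23.6%, so its count above was near that background. Both were above for 12 and below for 5, against 11.6% and 6.32%, and 42 were higher in replicate 1 than in replicate 2, against 45.7%. The median distance from the wild-type mean was 0.30 for replicate 1 and -0.01 for replicate 2. Fosl2, an AP-1 factor gene, read 10.24 and 9.99 in knockout arrays, against 8.97, 9.18 and 9.44 in wild-type arrays, a difference of 0.92 (SE 0.18) and a limma adjusted p of 0.446. Cebpb, a leucine zipper factor gene, and Ccn1, a matricellular gene, differed by 0.76 (SE 0.18) and 0.81 (SE 0.21). Rgs2, a regulator of G protein signalling, differed by 0.35 (SE 0.09), and each of these had no overlap between genotypes.

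**Figure D3:**
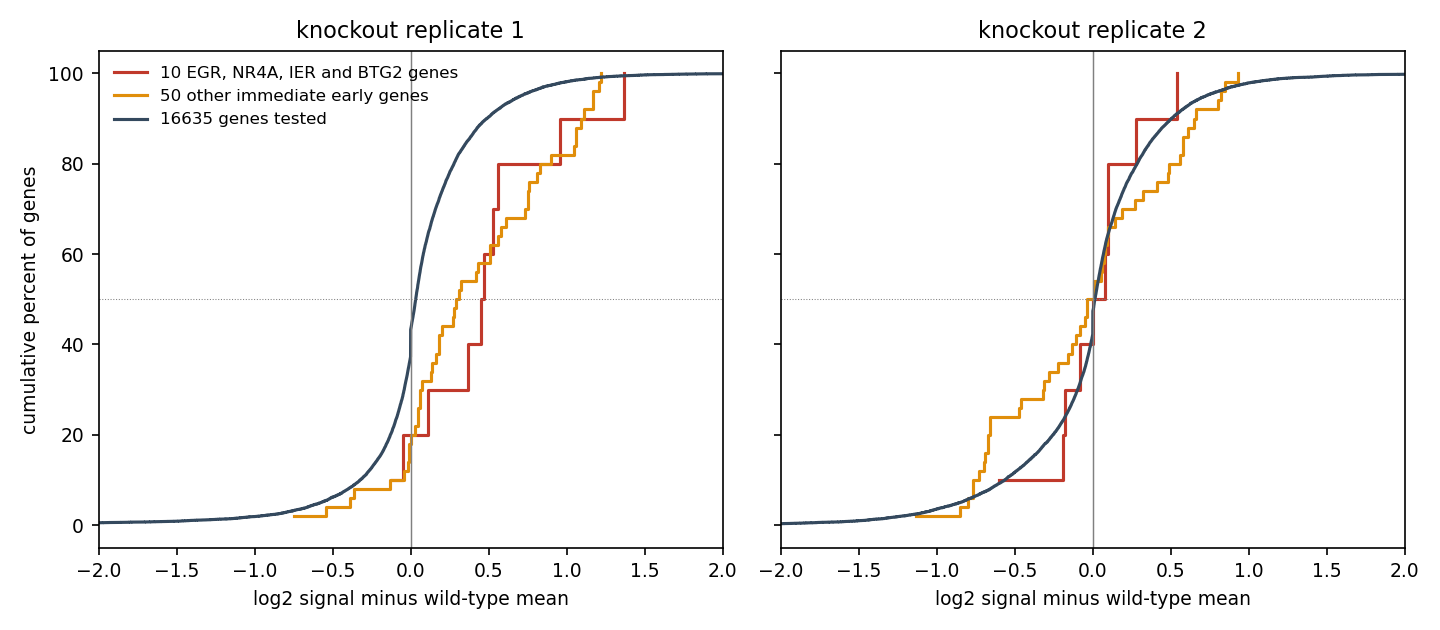
Cumulative percent of genes against log2 distance from the wild-type mean, for knockout replicate 1 at left and replicate 2 at right; a few of the genes tested lie beyond the axis. For replicate 1 the 10 genes and the 50 other immediate early genes lie to the right of all 16635 genes tested, with medians of 0.46, 0.30 and 0.03, and for replicate 2 the medians are 0.04, -0.01 and 0.01.

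Among relatives and cofactors, 12 of 13 genes were found and tested, 8 above and 4 below 0 in difference, with 0 passed and a median of 0.26. Ier5l, a relative of Ier5, read 5.14 and 5.22 in knockout arrays, against 4.57, 4.92 and 4.57 in wild-type arrays, a difference of 0.49 (SE 0.14) at a limma adjusted p of 0.55. Nab2, a corepressor that binds EGR factors and is itself an EGR target, counted among the targets too, read 6.56 and 6.23 in knockout arrays, against 7.18, 7.24 and 6.47 in wild-type arrays, a difference of -0.57 (SE 0.30). Egr4, the remaining EGR family gene, was dim at 4.36 and 4.14 in knockout and 4.08, 3.70 and 4.07 in wild-type arrays. Wt1, a zinc finger gene related to the EGR family, differed by 0.49 (SE 0.20).

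Among upstream factors, 18 of 22 genes were found and tested, 10 above and 8 below 0 in difference, with 0 passed and a median of 0.02. Crem, a factor of the cAMP response, read 5.81 and 5.34 in knockout arrays, against 5.11, 5.11 and 4.93 in wild-type arrays, with no overlap, a difference of 0.53 (SE 0.17) and a limma adjusted p of 0.602. Creb1, which encodes the cAMP response element binding protein, was again divided, at 8.45 and 7.42 in knockout arrays and 8.43, 8.43 and 8.60 in wild-type arrays. Mrtfa, a cofactor of serum response factor, differed by 0.13 (SE 0.08) and Nfatc2, a calcium-controlled factor gene, by -0.19 (SE 0.13).

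Genes described as EGR or NR4A targets in lymphocytes showed no common direction. Of 21 found, 18 were tested, 8 were above and 10 below 0 in difference, 0 passed and the median was -0.04. Pdcd1, the gene of the inhibitory receptor PD-1, read 6.36 and 5.92 in knockout arrays, against 6.72, 6.51 and 6.51 in wild-type arrays, with no overlap, a difference of -0.45 (SE 0.17) and a limma adjusted p of 0.623. Cdkn1a, a cell cycle inhibitor gene, differed by 0.43 (SE 0.18), Itch, a ubiquitin ligase gene, by 0.27 (SE 0.14) and Tnfrsf9, which encodes the receptor 4-1BB, by 0.48 (SE 0.25).

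Within the other immediate early genes, the pattern nearest to Nr4a1 over the 5 arrays was that of Ppp1r15a, a stress phosphatase subunit, at a root mean square difference of 0.154 log2 units after centring on wild type. Zfp36, an mRNA decay factor gene, and Id3, an inhibitor of helix-loop-helix factors, followed at 0.161 each. Zfp36 read 11.21 and 10.58 in knockout arrays and 10.89, 10.90 and 10.90 in wild-type arrays, high in replicate 1 and low in replicate 2. It was picked for its likeness to Nr4a1, so that pattern is no separate instance. Nearest to Egr1 were Jund at 0.147, Irf1 at 0.161 and Srxn1 at 0.173.

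The list means of heat shock genes and of lung epithelium markers were also highest in knockout replicate 1, though not every gene in them was. The heat shock and dissociation stress list, 13 of 16 genes found, had means of 6.44 and 6.19 in knockout replicates 1 and 2, against 6.05 to 6.25 in wild type. Of its 12 genes tested, 7 were above all wild-type arrays in replicate 1 and 3 in replicate 2. Over all genes tested 31.1% and 30.4% were. The median difference was 0.14, against 0.04 over all genes tested, and 0 passed. Those of smallest p were Hspb1 at 0.59 (SE 0.15) and Hsp90aa1 at 0.25 (SE 0.06). Hspb1 was higher in replicate 2, at 5.07, than in replicate 1, at 4.92. The 14 lung epithelium markers had means of 5.56 and 4.56 in knockout arrays, against 4.17 to 4.31 in wild type, and summed linear signals of 1312 and 408.4, against 305.7 to 343.6. Of the 12 tested, 8 were above all wild-type arrays in replicate 1 and 6 in replicate 2. The shares over all genes tested were 31.1% and 30.4%. Epcam, a general epithelial marker, read 4.51 and 4.99 in knockout arrays and 3.88 to 4.13 in wild type. Airway genes, chosen after their values were seen, stood out in replicate 1: Scgb1a1 read 8.81 and 5.93 in knockout and 3.62 to 5.01 in wild-type arrays, and Bpifa1 read 8.52 and 3.22 in knockout and 2.85 to 3.22 in wild-type arrays. Scgb3a2, left out of the test by its low mean, read 6.21 and 2.07 in knockout replicates 1 and 2 and was near the floor on all wild-type arrays, and Foxj1 was near the floor on all 5. The 7 neutrophil markers had summed signals of 187.8 and 117.7 in knockout arrays and 110.3 to 122.6 in wild type, with S100a8 and Ly6g below the filter on dim genes. Whether RNA of such cells, or dissociation, has a part in the high signals of the 10 genes in replicate 1 was not tested, and in such bulk samples a share of other cells and the RNA per cell cannot be told apart.

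In knockout replicate 2 the median distance of the 10 genes from the wild-type mean was 0.04, with Ier2 at -0.60 and Nr4a2 at 0.54. That array had the higher summed signal of 10 endothelial markers, 591.1, while replicate 1 had 410.9 and the wild-type arrays had 343.8 to 358.4. The sum of 6 NK cell and ILC1 markers was 191.5 in replicate 2 and 123.0 in replicate 1, and 107.3 to 114.4 in wild-type arrays. That sum turned on Gzma, a granzyme gene, at 6.56 in replicate 2 and 3.84 in replicate 1 and 3.27 to 4.01 in wild type, while Ncr1, Tbx21 and Prf1 were no higher in replicate 2 than on the highest wild-type array. Eomes, a defining factor of NK cells, was near the floor on all 5 arrays. Both knockout arrays had lower sums than all wild-type arrays for 2 lists, T cell markers and ILC2 identity genes. T cell markers summed to 1561 and 1646 in knockout and 1830 to 2051 in wild type. Cd3g and Lat were by far the brightest of them, and 5 of the 9 were above 0 in difference. ILC2 identity genes summed to 9487 and 9439 in knockout and 9986 to 10720 in wild type. Of the 16, 13 were below and 3 above 0 in difference. Icos, the gene of smallest p, read 8.28 and 8.55 in knockout and 7.07 to 7.28 in wild type. Mast cell, basophil and eosinophil markers summed to 224.8 and 275.1 in knockout and 184.5 to 222.7 in wild type. Fibroblast markers, at 146.2 and 154.6 in knockout and 136.7 to 147.0 in wild type, and B cell markers, at 710.3 and 489.6 in knockout and 657.9 to 858.3 in wild type, put 1 knockout array outside the wild-type range. Macrophage and dendritic cell markers, at 168.6 and 164.3 in knockout and 142.1 to 207.1 in wild type, overlapped, with Csf1r below the filter on dim genes. The part of these in the results was not tested.

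**Figure D4:**
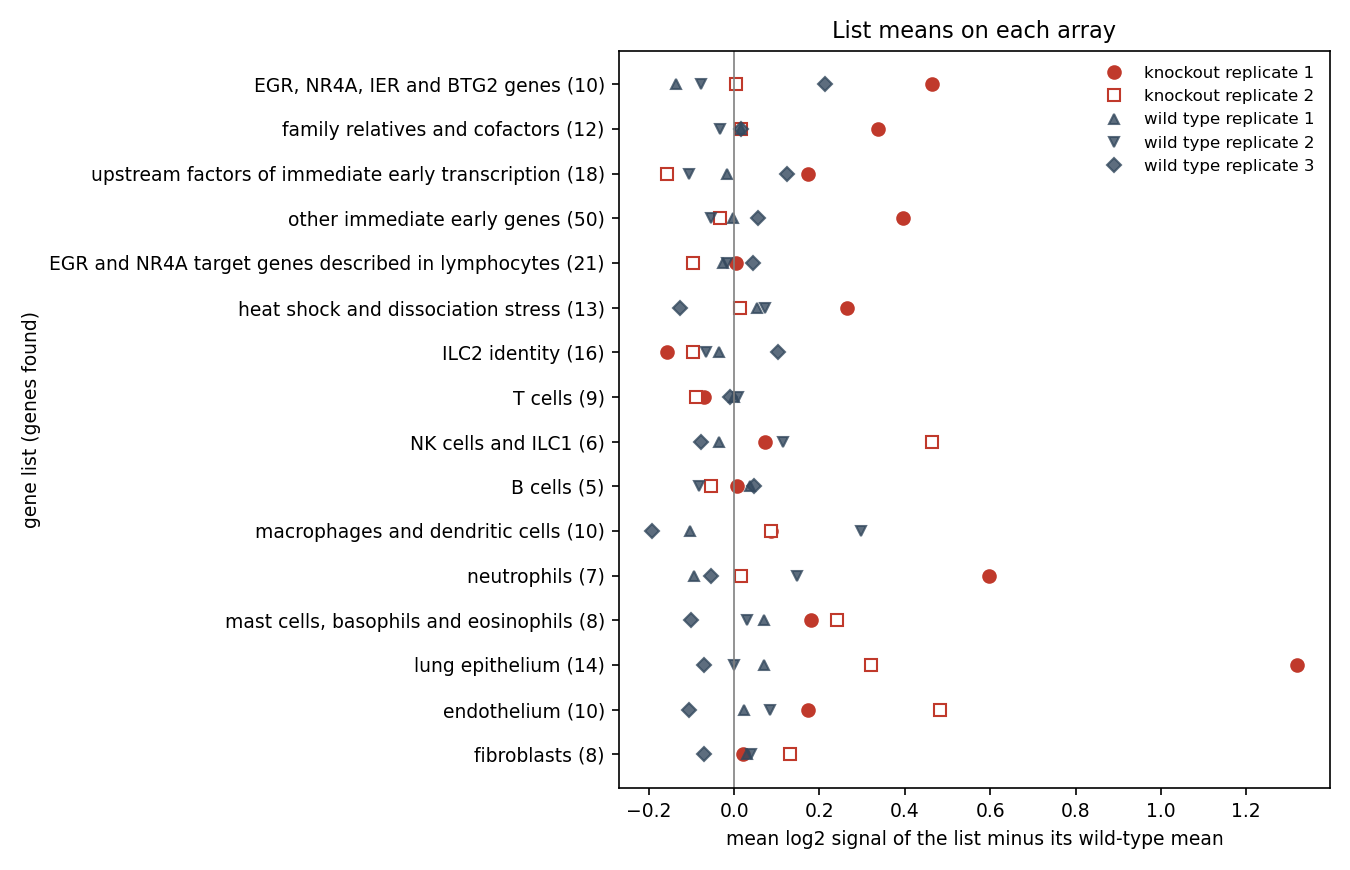
Mean log2 signal of each gene list on every array minus the mean of its wild-type arrays. The 10 genes stand highest in knockout replicate 1 and next highest in wild-type replicate 3, and the epithelial list stands highest in knockout replicate 1.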

How the data were processed

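Total RNA was extracted with Trizol and biotin-labelled, per the labels' protocols. The authors deposited log2 probe-set signals for 5 arrays in 1 table, and Affymetrix Expression Console and RMA are the tools in the submitters' processing notes, without versions or settings. RMA as usually run equalises distributions, so a shift of all transcripts cannot be seen. Equal values on at least 2 arrays occurred in 63.6% of genes tested, Egr3, Nr4a3 and Ier3 among them. They can make a spread too small. They also lower the shares of all genes tested that are counted as above, below or highest. Of 41345 probe sets, 23521 had 1 symbol. The probe set with the highest mean stood for its gene, and genes in the dimmest 25% by mean signal were not tested. All 10 members passed that filter.

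The fit of knockout against wild type used lmFit and eBayes of limma 3.58.1 (R 4.3.3) over 16635 genes without a block, and the procedure was tested on simulated data. That simulation gave every array independent normal noise with the wild-type spread. It therefore does not cover ties or knockout arrays that stand apart, as in these data. Symbols and gene spans came from RefSeq GRCm38.p6; the files name no build. Members and lists were chosen with earlier results of these data known. The named genes are the 10 members, up to 4 genes per list with the smallest p, and the 3 genes nearest in pattern to Egr1 and Nr4a1; the marker lists are given as sums, and genes named from them are defining markers, genes of smallest p, or said to be chosen afterwards. Alternatives covered filters, probe sets per gene, normalization, the variance model, weights, a block and leaving out arrays. Counts of arrays above or below wild type under other normalizations or without an array were added after seeing the data.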

Additional observations from a re-analysis of the deposited data

How the results depend on the processing

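With limma, 0 of the 10 genes passed in the fit as reported or in any alternative, and of 130 alternative differences 119 kept their sign. The signs of Egr2, Nr4a2, Nr4a3 and Ier3 held in all 13 alternatives. Each gene had 1 probe set, so the other filters, the mean of probe sets and the variance model could not change a difference. The signs kept under those settings were fixed in advance. Egr1, at -0.02, was 0.016 after quantile normalization and 0.073 with the replicate block. The block is built on numbers that share no stated source, and it changed no call. Replicate 3 exists only in wild type, so the block gave the same differences as leaving out wild-type replicate 3. Deviations of same-numbered arrays correlated at -0.0457 and 0.143. The deviations of the 2 knockout arrays mirror each other, so these correlations cannot test a pairing. The labels state no pairing, so arrays were not taken as paired. Leaving out arrays, the differences ran from -0.0035 to 0.556 for Btg2, -0.119 to 0.075 for Egr1, -0.177 to 0.159 for Egr3, -0.605 to 0.450 for Ier2, -0.294 to 0.071 for Ier5 and -0.181 to 0.373 for Nr4a1, and from 0.193 to 0.502 for Egr2, 0.542 to 1.37 for Nr4a2, 0.097 to 0.960 for Nr4a3 and 0.096 to 0.530 for Ier3. The low ends of Nr4a2, Nr4a3 and Ier3 were without knockout replicate 1 and that of Egr2 without wild-type replicate 2; Nr4a3 was 0.247 without wild-type replicate 1. The median of the 10 ran from 0.036 without knockout replicate 1 to 0.460 without knockout replicate 2. Over all genes, 0 to 1072 passed, with 1072 without knockout replicate 1 and 389 without knockout replicate 2. Both knockout arrays above wild type held for 2 to 4 genes without a wild-type array (15% to 15.7% of all genes tested), and both below for 0 to 1 (8.67% to 9.32%), the 1 without replicate 2. A count above or below wild type cannot fall when a wild-type array is left out. Knockout replicate 2 was above for 2 to 5, the 5 without replicate 3 (34.4%), and for 4 after quantile normalization, near the 38.9% of all genes tested. Leaving out arrays changes the number of samples, and the block does so in effect for wild-type replicate 3. The cause of the other shifts was not tested. The filter on dim genes is a quantile of mean signal and measures no background, so signal over background is not given.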
